A study of Saccharomyces cerevisiae with 4 samples.

Results

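The genes described here encode the proteins of the mitochondrial ribosome of the budding yeast Saccharomyces cerevisiae. They were chosen by name and not by their values: a feature was a member if its standard symbol in the R64 annotation was MRPL, MRPS, MRP or RSM followed by a number and the annotation gave its product as a mitochondrial ribosomal protein. Of the 7126 features of the table, 67 had such a symbol and 66 were members. MRP8 was left out because the annotation does not give it as a ribosomal protein, and RSM22 was kept because its note does, although its product is listed as a methyltransferase. All 66 had a mean of at least 5 normalised reads over the libraries, the minimum used for every comparison, as had 5642 features in all. The members were 38 proteins of the large (54S) subunit, 27 of the small (37S) subunit and RSM22.

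RNA was sequenced from 4 cultures of strain DPY438, whose genotype label is Hsf1-AA, so every group carried the anchor-away allele of Hsf1, the activator of chaperone genes in heat. In an anchor-away strain rapamycin tethers the tagged nuclear protein to one that leaves the nucleus. The groups were NHS_noRapa (30 °C, no drug), NHS_+Rapa (30 °C, 1 µM rapamycin for 45 min), HS_noRapa (10 min at 39 °C, no drug) and HS_+Rapa (10 min at 39 °C with rapamycin). With 1 library in each group, none of the differences could be checked against replicates. The labels give no rapamycin-treated strain without the tag, so withdrawal of Hsf1 and other effects of the drug cannot be told apart.

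The mitochondrial ribosome makes the few proteins encoded by mitochondrial DNA, nearly all of them subunits of the respiratory chain and the ATP synthase. Its RNAs and 1 protein, Var1, come from mitochondrial DNA, and all its other proteins are encoded in the nucleus, made in the cytosol and imported. Many nuclear mRNAs for mitochondrial proteins carry, after the stop codon, a short element bound by Puf3, an RNA-binding protein known in yeast for controlling the decay and the mitochondrial location of these mRNAs. Cytosolic ribosomal protein genes form a separate set, known for a rapid loss of transcripts in heat.

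The Puf3-type motif, searched as TGTANATA on the coding strand in the 200 bases after the stop codon of the R64 sequence (which sacCer3 names), was found in 65 of the 66 members (98.5%). It was found in 14% of the other 5370 kept protein-coding genes and in 15% of all 5436. RSM22 was the member without it, also within 400 bases. Its reverse complement was found in 18.2% of the members and 13.8% of all 5436 genes. The window is not a mapped 3′ UTR, and a match says only that these letters are present.

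The sites of the members whose values differed most are printed with the motif in capitals, 5′ to 3′ on the strand of the mRNA. With the motif in 65 of the 66 members, genes from either end were bound to share it. The shared letters therefore say nothing about the direction of a ratio. The first 5 belong to genes lower in heat without rapamycin.
MRPL20: aataacaatcgTGTAAATActactctataa
MRPL11: ctattcaatcaTGTACATAcatcatcaaaa
MRP2: ggatacgcactTGTAAATAaatacatgata
MRPL37: tttggtatcctTGTAAATAaatatgtgtgt
MRPL8: gtgtattccctTGTAAATAtatagatgaca
These lie at chrXI:599049-599078 (minus strand), chrIV:99267-99296 (plus), chrXVI:876214-876243 (minus), chrII:741638-741667 (plus) and chrX:315714-315743 (minus), beginning their motif 27, 54, 50, 33 and 27 bases after the stop codon. The next sites belong to genes higher in heat without rapamycin.
MRPS17: gcactacactcTGTAAATAtatacaactac
MRPL39: ttcatttatccTGTAAATAagtaatggata
MRP35: ttcggtcttcaTGTATATAaataagtatga
Their positions are chrXIII:636217-636246, chrXIII:251207-251236 and chrXIV:397921-397950, all on the minus strand. The site of RSM18, the member with the highest heat ratio under rapamycin, and that of MRP4, the member with the lowest, differed at the N of the motif.
RSM18: atagttctgtcTGTAAATAtacaatatgta
MRP4: taacctaaactTGTACATAtgcccatatat
They lie at chrV:253886-253915 (minus strand) and chrVIII:100429-100458 (plus).

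MRPL3 was the member whose first motif had G at the N, and it carried another motif with C downstream of it, at chrXIII:323054-323083 and chrXIII:323089-323118 on the plus strand.
MRPL3 first site: gtttgccatttTGTAGATAgagaactcctt
MRPL3 second site: gaatacattctTGTACATAtatatatacac
In the first motif of the 65 members the N was A in 32, T in 20, C in 12 and G in 1. Among the 750 other genes with the motif, T was most frequent at the N (50.5%), followed by A (27.3%). A C stood 2 bases before a motif in 52 of the 65 members (80%) and in 26.3% of those 750 genes. This position, a known preference of Puf3, was looked at after the sites had been seen. More than 1 motif was found in 13 of the 65 members (20%) and in 7.73% of the other genes with a motif. RSM19, a protein of the head of the small subunit, had 3.

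The first motif of a member lay 8 to 139 bases after the stop codon, with a median of 51, counted to the first base of the motif. In 61 of 65 that base lay within 100 bases, and in 60 the whole motif did. In the other genes that had one, the median was 60 and the range 1 to 193. The motif was also frequent in the rest of the mitochondrial translation apparatus. It was present in all 14 nuclear mitoribosomal protein genes with other symbols (RML2, YML6, IMG1, IMG2, MNP1, PET123, SWS2, NAM9, MHR1, EHD3, RTC6, FYV4, QRI5 and MRX14), in 13 of 13 mitochondrial aminoacyl-tRNA synthetase genes, in 7 of 9 translation factor genes, in 6 of 8 assembly and rRNA modification genes and in 11 of 15 translational activator genes. It was present in 4 of 35 genes of the respiratory chain and ATP synthase and in 6 of 137 cytosolic ribosomal protein genes.

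**Figure D1:**
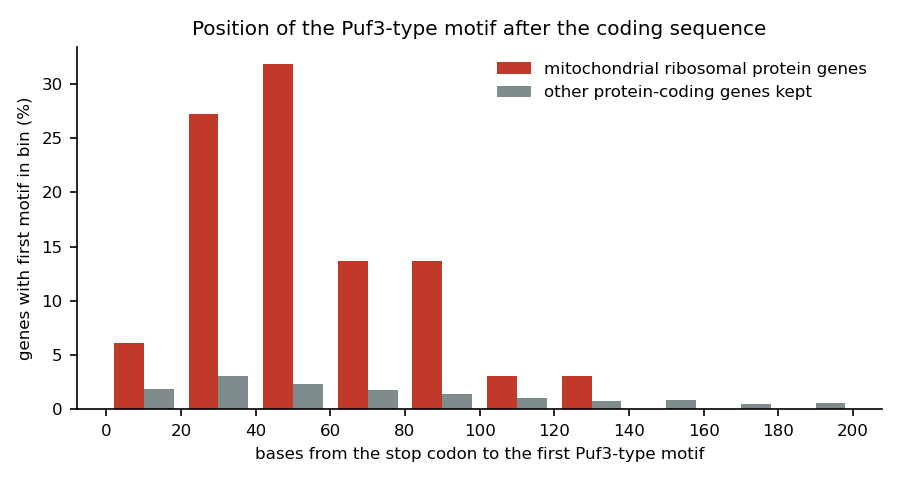
Position of the first Puf3-type motif, as the percentage of genes (vertical axis) whose first motif begins in each bin of 20 bases after the stop codon (horizontal axis), for the 66 members and the 5370 other kept protein-coding genes. The members' bars are highest between 21 and 60 bases and absent beyond 140.

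Promoter windows, 250 bases before to 50 after the annotated gene start and searched on both strands, did not set the members apart in this way. CCCCT, the stress response element bound by Msn2 and Msn4, was found in 10 members (15.2%) against 21.9% of all 5436 genes. CCAAT, the core of the site of the Hap complex, was found in 28 members (42.4%) against 43.9%, and in 30 of the 35 respiratory genes (85.7%). AATTTT was found in 42.4% against 53%. The heat shock element, as 3 alternating repeats of its core with a fixed spacing, was found in 0 of 66 members against 0.809% of all genes. The motifs are short, and none contains another.

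The members were genes of low to moderate level. Together they took 3757 reads in NHS_noRapa, 6828 in NHS_+Rapa, 3127 in HS_noRapa and 5293 in HS_+Rapa, out of library totals between 1561620 and 3231228. Those are 0.241%, 0.211%, 0.154% and 0.235% of all reads, with an exact binomial interval of 0.233% to 0.248% for the first. The median normalised read count of a member was 84.4, 84.8, 65.2 and 69.2 in the same order. Per kilobase of coding length the median was 117, 123, 98.2 and 111, against 3046, 3429.5, 1125 and 2209 for cytosolic ribosomal protein genes and 466, 421, 833 and 732 for the respiratory genes. The 54S median per kilobase was 115, 122, 92.6 and 107, and the 37S median 126, 137, 109.8 and 118. The members' mean levels per kilobase ran from 49.6 to 352, while the proteins themselves are thought to be present in equal numbers.

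MRPS12 (uS12m, a protein of the decoding centre) had the highest mean level per kilobase, 352. MRPL39 (bL33m) followed at 221, RSM18 (bS18m) at 206, RSM7 (uS7m, a head protein that binds the small rRNA early in assembly) at 204 and MRPL36 (bL31m) at 198. The lowest means were those of RSM22 (49.6), MRPL25 (mL59, 59.3), MRPL24 (bL28m, 61.4), RSM23 (mS29, the relative of human DAP3, 64.9) and MRPL7 (uL5m, which contacts the peptidyl tRNA in bacteria, 65.5). VAR1, the mitochondrial gene, is listed at 0 in every library, as are all 28 mitochondrially encoded features, so the organelle's own share of the ribosome is not measured here.

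The first comparison asked how the transcripts stood after 10 min at 39 °C without rapamycin. The members moved little as a group: 2-fold or more lower were 6 (9.09%) and 2-fold or more higher 3 (4.55%), where 19.3% and 19.8% of all features were. A 2-fold difference on log2(value + 1) is a rule of size and not a test, and it understates the change of low genes. The median log2 ratio was -0.20 for the members and 0.02 for all features. The reads summed over members gave a fold of 0.873, with a 95% counting interval of 0.832 to 0.915 that leaves out the variation between cultures. The same sum over all features gave 1.36, a ratio of scaled library totals and not the ratio of a typical feature. Protein-coding features held 64.7% of reads in NHS_noRapa and 59.6% in HS_noRapa. The intervals of 16 members lay below 1 and those of 6 above it, against 31.1% and 31.8% of all features. In bulk RNA, fewer cells with a transcript and less of it per cell cannot be told apart.

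The place of the zero line depends on the scaling. With reads taken as a share of the library total, the median of all features shifted by -0.44 in heat without rapamycin, by 0.40 in heat with rapamycin, by -0.36 for rapamycin at 30 °C and by 0.48 for rapamycin in heat. The higher features then made up 29.8%, 78.6%, 16.1% and 92.0% of those past 2-fold, in place of 50.6%, 55.6%, 53.9% and 64.9%. The members shifted with the rest: their median less that of all features was -0.22 in heat without and -0.21 in heat with rapamycin under both scalings, and directions below are to be read relative to the median of all features.

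MRPL20 (mL58, a protein that mitochondrial ribosomes have and bacterial ones lack) had the lowest heat ratio. It read 95.8 in NHS_noRapa, 87.1 in NHS_+Rapa, 31.5 in HS_noRapa and 69.2 in HS_+Rapa. The library in heat without rapamycin stood alone at the bottom, 3.04-fold under its 30 °C counterpart (1.84 to 5.23). MRPL3 (mL44, near the exit channel of the large subunit per the annotation) read 172, 116, 63.0 and 99.9, again with HS_noRapa lowest, and was 2.72-fold lower (an interval of 1.9 to 3.97). MRPL11 (uL10m, the protein at the base of the stalk that recruits translation factors) read 85.8, 67.5, 30.0 and 40.4, low in both heated libraries, and was 2.86-fold lower (1.70 to 5.01).

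MRP2 (uS14m) went from 52.9 to 19.5, MRPL37 (mL54) from 65.8 to 27.0 and MRPL8 (bL17m, near the tunnel exit in bacteria) from 105.8 to 48.0. MRPL8 was the member just inside the 2-fold limit, at a log2 ratio of -1.12. MRP4, RSM25 and MRPS35 were just outside it, each at -0.94.

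At the other end, MRPS17 (uS17m, an early binder of the small rRNA) read 51.5 in NHS_noRapa, 109 in NHS_+Rapa, 126 in HS_noRapa and 97.0 in HS_+Rapa. The low library was the untreated one, and the other 3 lay near each other; the heat ratio without rapamycin was 2.45-fold (1.64 to 3.72). MRP35 (bL35m) had the same shape at 14.3, 34.7, 34.5 and 43.2, but its untreated value rests on 10 reads, and its 2.41-fold difference had an interval of 1.10 to 5.68. MRPL39 read 18.6, 85.3, 40.5 and 44.2, with 13 reads in the untreated library, and was 2.18-fold higher (1.09 to 4.6). MRPL22 (uL22m, which lines the exit tunnel) was just outside the limit at 0.92, from 110.1 to 209.9, 1.91-fold higher (1.43 to 2.55). RSM19 (0.66) and MRPL24 (0.64) followed, with intervals that spanned 1.

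**Figure D2:**
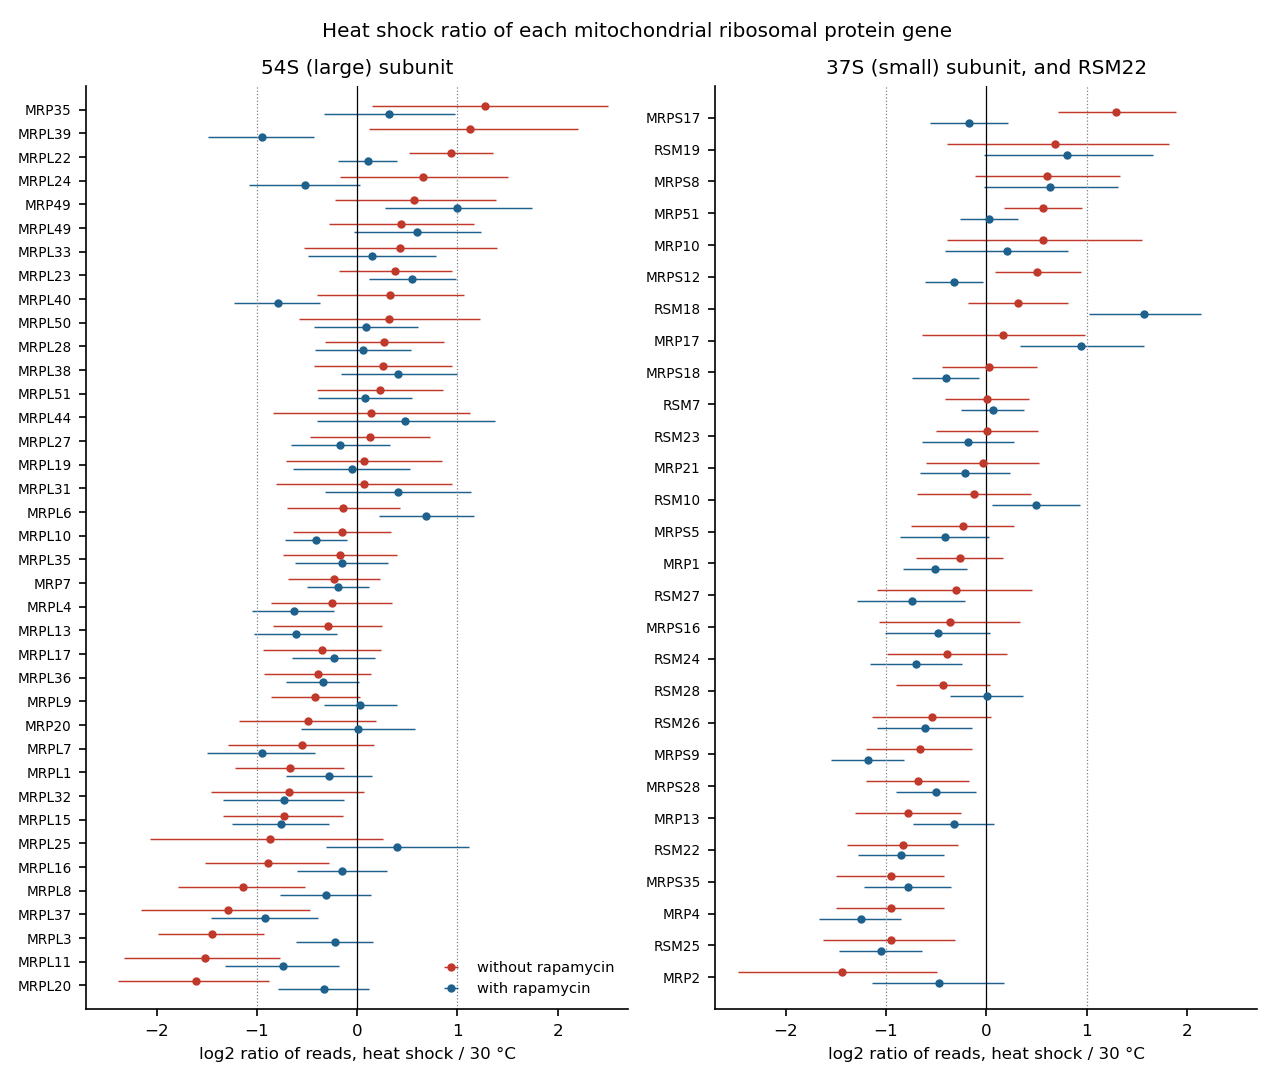
Heat shock ratio of every member, as the log2 ratio of reads in heat shock over 30 °C on the horizontal axis, without (red) and with rapamycin (blue), for the 54S genes on the left and the 37S genes and RSM22 on the right, sorted by the ratio without rapamycin. Bars are 95% counting intervals of 1 library against 1, dotted lines mark 2-fold, and most points lie between those lines, with MRPL20, MRPL11 and MRPL3 at the low end and MRP35, MRPS17 and MRPL39 at the high end without rapamycin.

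The second comparison was the same heat shock in cultures given rapamycin, between libraries that do not enter the first. Here 3 members were at least 2-fold lower and 1 was at least 2-fold higher, against 14.6% and 18.3% of all features. The median was -0.21, with 0.00 for all features, and the summed fold was 0.838 (0.809 to 0.869), with 0.754 for all features. That 0.754 is again a ratio of scaled library totals, with 59.5% of reads protein-coding in NHS_+Rapa and 66.5% in HS_+Rapa. Intervals lay below 1 for 22 members and above 1 for 6, against 33.7% and 33.4%. In 2 members, MRPL39 and MRPS12, the intervals of both heat comparisons lay on opposite sides of 1, as in 3.05% of all features.

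The lowest ratios belonged to the small subunit. MRP4 (uS2m) read 130.1 in NHS_noRapa, 163 in NHS_+Rapa, 67.5 in HS_noRapa and 68.2 in HS_+Rapa. Both heated libraries lay under both at 30 °C, and the fold was 2.38-fold lower with rapamycin (1.80 to 3.18) and 1.93-fold lower without (1.34 to 2.82). The start of MRP4 overlaps the annotated frame YHL005C on the other strand, and no source used here says how reads were assigned by strand.

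MRPS9 (uS9m, whose tail reaches the peptidyl tRNA in bacteria) read 119, 199.9, 74.96 and 88.4 and was 2.26-fold lower with rapamycin (1.77 to 2.91) and 1.58-fold lower without (1.10 to 2.30). RSM25 (mS23) read 90.1, 143, 46.5 and 69.2 and was 2.07-fold lower with rapamycin (1.56 to 2.77). In all 3 genes the heated libraries were the low ones and NHS_+Rapa the highest. The 3 were picked for a low ratio of HS_+Rapa to NHS_+Rapa, so part of this shape follows from the choice. RSM25 was the member just inside the limit (-1.04), and MRPL7 and MRPL39 were just outside it, both at -0.93, followed by MRPL37 at -0.90.

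RSM18, a partner of bS6 on the platform of the small subunit in bacteria, was the 1 member at least 2-fold higher. It read 91.5 in NHS_noRapa, 34.7 in NHS_+Rapa, 114 in HS_noRapa and 103 in HS_+Rapa, so that the low library was NHS_+Rapa and the other 3 lay close together. Its heat ratio with rapamycin was 2.97-fold (2.04 to 4.40). MRP17, its bS6m partner, read 38.6, 32.0, 43.5 and 61.5 and was 1.92-fold higher (1.26 to 2.98). MRP49 (mL61) was the member just outside the limit at 0.97, from 23.1 to 46.1. RSM19, MRPL6 and MRPS8 followed at 0.78, 0.68 and 0.62.

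No member passed 2-fold in the same direction in both comparisons: 0 of the 6 and 3 lower members were shared, and 0 of the 3 and 1 higher members. Among all features, 621 were at least 2-fold lower in both (11%), which is 57.0% of those lower without and 75.3% of those lower with rapamycin, and 723 were higher in both (12.8%), 64.8% and 69.9% of the respective lists. Counting intervals lay below 1 in both comparisons for 9 members (13.6%, against 24.4% of all features) and above 1 in both for 0 (against 23.6%). The 9 were MRP4, MRPL11, MRPL15, MRPL37, MRPS9, MRPS28, MRPS35, RSM22 and RSM25. Across the 66 members the heat ratios of the comparisons had a Spearman rho of 0.56, and across all features 0.78. This is a correlation across genes, which are not independent replicates. The SD of the members' log2 ratios was 0.65 without and 0.56 with rapamycin, where counting error alone gives about 0.33 and 0.25.

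**Figure D3:**
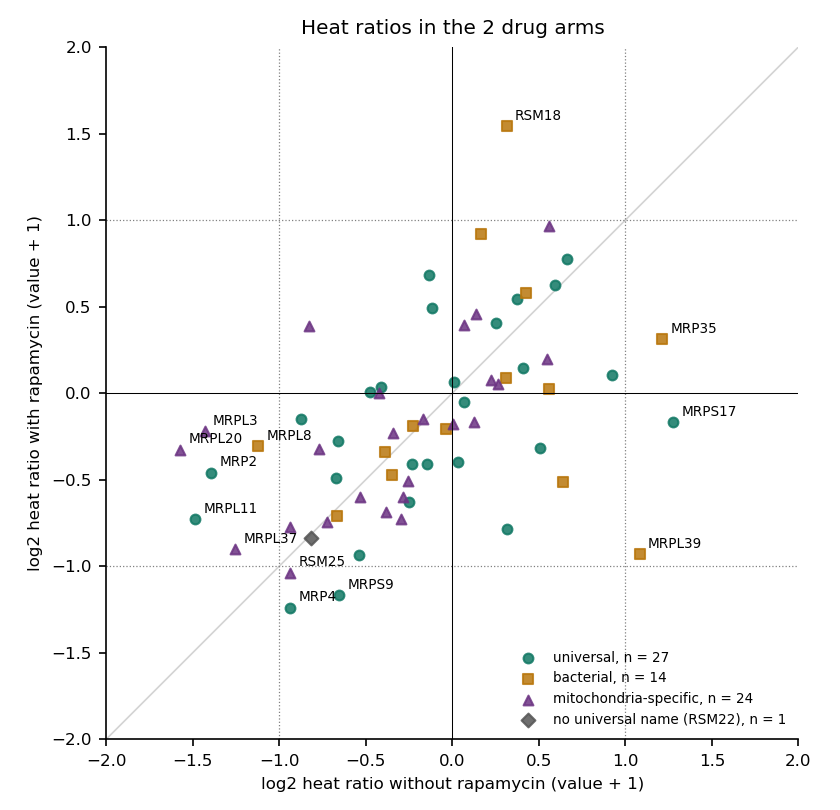
Heat ratio without rapamycin (horizontal axis) against heat ratio with rapamycin (vertical axis), both as log2 of value + 1, for the 66 members by family of the protein. Dotted lines mark 2-fold and named genes are past it in 1 comparison. No point lies in the lower left or upper right corner, and MRPL39 lies farthest from the diagonal, followed by MRPS17.

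Values differed somewhat between kinds of ribosomal protein. The 27 members of universal families (found in all ribosomes) had median heat ratios of -0.14 without and -0.17 with rapamycin, the 14 of bacterial families 0.24 and -0.20, and the 24 mitochondria-specific ones -0.32 and -0.23. None of the 24 mitochondria-specific genes was at least 2-fold higher in either comparison. The shares were 4.55% and 1.52% of the 66 members and 19.8% and 18.3% of all features. In the universal family 1 and 0 of 27 were at least 2-fold higher, and in the bacterial family 2 and 1 of 14. At least 2-fold lower were 3 and 1 of the 24, 2 and 2 of the 27 and 1 and 0 of the 14. Of all features 19.3% and 14.6% were lower by this rule. The summed reads of the mitochondria-specific family gave folds of 0.739 (0.681 to 0.803) and 0.789 (0.741 to 0.840). In the bacterial family the folds were 1.04 (0.932 to 1.16) and 0.954 (0.880 to 1.03). The 54S and 37S medians were -0.16 and -0.23 without, and -0.16 and -0.32 with rapamycin. The difference between families was not tested, and the family shows only in part in single genes, since MRPS17 and MRP2 are both universal.

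Longer members tended to have lower heat ratios. Across the 66, coding length had a Spearman rho of -0.40 with the heat ratio without rapamycin and -0.42 with it, from pairs of libraries with none in common. Across 5436 protein-coding genes rho was -0.08 and -0.04. For the rapamycin ratios it was 0.01 at 30 °C and -0.07 in heat. The points share libraries and the shorter genes have fewer reads. Among long members, RSM22 (1887 bases) was 1.78-fold lower without and 1.80-fold lower with rapamycin, and RSM23 (1353 bases) had ratios of 0.00 and -0.18.

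Rapamycin at 30 °C left most members near the line. The 2-fold rule was met upward by 5 members, against 4.7% of all features, and downward by 1, against 4.02%. The median was 0.02 and that of all features 0.01. The summed fold was 1.13 (1.09 to 1.18), and 17 intervals lay above and 3 below 1, where 20.8% and 18.7% of all features did. The untreated library enters this comparison and the first heat comparison, so a low value there raises both ratios.

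MRPL39 had the largest ratio, 4.59-fold (2.56 to 8.93), from 18.6 to 85.3. MRPL40 (uL24m, an early assembly protein of the large subunit near the exit) read 44.3 in NHS_noRapa, 119.9 in NHS_+Rapa, 55.5 in HS_noRapa and 69.2 in HS_+Rapa. NHS_+Rapa was the only high library of the 4 for MRPL39 and MRPL40, and MRPL40 was 2.71-fold higher there (1.82 to 4.14). MRP35 (2.42-fold, 1.19 to 5.44) and MRPS17 (2.12-fold, 1.45 to 3.17) were low in the untreated library alone. MRPL24 read 31.5, 64.9, 49.5 and 45.2 and was 2.06-fold higher (1.27 to 3.49). The 1 lower member was RSM18, 2.64-fold (1.75 to 4.04). MRPL6 (uL6m) and MRPL3 came next, 1.49-fold and 1.47-fold lower.

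In heat, the rapamycin ratio met the 2-fold rule upward in 2 members and downward in 0, against 4.56% and 2.46% of all features. The SD of the members' ratios, 0.33, was close to the 0.30 that counting error gives. MRPL25 (mL59, whose loss extends the life of mother cells per the annotation) read 30.0 in NHS_noRapa, 28.4 in NHS_+Rapa, 16.5 in HS_noRapa and 37.5 in HS_+Rapa, 2.27-fold higher (1.14 to 4.92) on 11 and 39 reads. MRPL20 was 2.20-fold higher (1.34 to 3.76), and MRPL50 (bL9m) 1.67-fold (1.04 to 2.76). For MRPL25 and MRPL20 the library apart from the rest was HS_noRapa. The lowest ratios, RSM23 (-0.45), MRPS8 (-0.41) and MRPS17 (-0.37), had intervals that spanned 1. The median was 0.11, and 0.04 for all features. Intervals lay above 1 for 6 members and below 1 for 0, against 15.7% and 13.8%. MRPL3 was the 1 member whose rapamycin intervals at 30 °C and in heat lay on opposite sides of 1, as in 6.7% of all features.

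The difference of the heat ratios, with rapamycin less without, was at least 1 on the log2 scale in 4 members and at most -1 in 4, against 9.25% and 8.29% of all features. With the library total as the scale these counts were 23 and 1, against 43.9% and 2.32% of all features. The lowest were MRPL39 (-2.02), MRPS17 (-1.44) and MRPL24 (-1.15), and the highest MRPL20 (1.25), RSM18 (1.23) and MRPL3 (1.21). The members' median was -0.02 and that of all features 0.06. Of the 66, NHS_+Rapa was the highest library in 25 and HS_noRapa the lowest in 28, where these were 27.4% and 32.7% of all features.

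**Figure D4:**
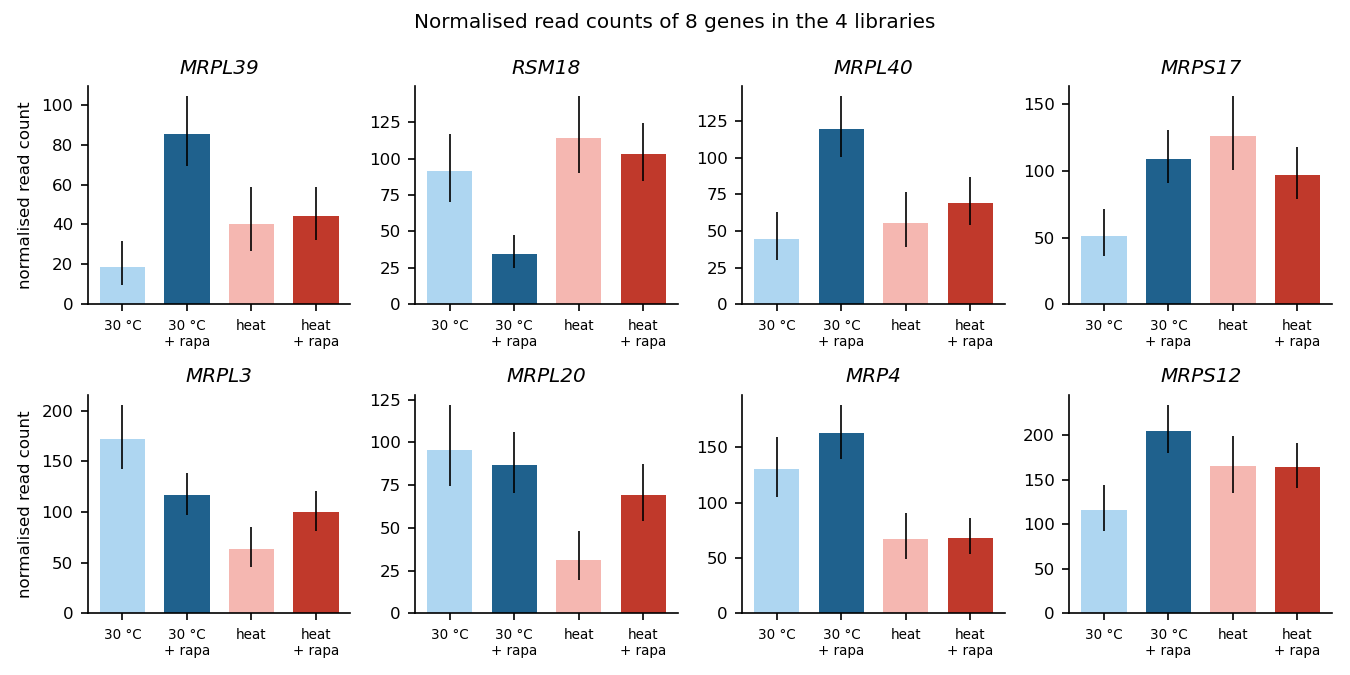
Normalised read counts (vertical axis, from 0) of 8 members in the 4 libraries, in the order 30 °C, 30 °C with rapamycin, heat and heat with rapamycin, with exact Poisson 95% limits of the reads. In MRPL39 and MRPL40 the 30 °C library with rapamycin stands above the others, in RSM18 it stands below them, in MRPL3 and MRPL20 heat without rapamycin is lowest, and in MRP4 both heated libraries are low.

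An additive count test on all 4 libraries (edgeR quasi-likelihood, Benjamini-Hochberg adjustment over 5642 features) has only 1 residual degree of freedom. It takes an interaction for noise, and its p-values are about these libraries rather than the conditions. For heat it called 8 members lower and 1 higher at an adjusted p under 0.05, against 19.3% and 20.2% of all features. The lower ones were MRP4 (log2 fold change -1.11, edgeR adjusted p = 0.0033), MRPS9 (-0.94), RSM25 (-1.01), MRPL11 (-1.09), MRPL37 (-1.07), MRPS35 (-0.86), RSM22 (-0.84) and MRPL3 (-0.79, edgeR adjusted p = 0.045), and the higher one was RSM18 (0.93, edgeR adjusted p = 0.030). The calls of RSM18 and MRPL3 rest mainly on 1 drug arm. RSM18 read 91.5 in NHS_noRapa and 114 in HS_noRapa, and its low value was the 34.7 of NHS_+Rapa. The heat interval of MRPL3 with rapamycin spanned 1 (fold 0.859, 0.657 to 1.12). DESeq2 called 0 members for heat, against 657 higher and 637 lower of all 5642 features. It had 2 members at an unadjusted p under 0.05, against 1851 of all features. For rapamycin edgeR called 0 members, against 0.106% higher and 0.354% lower of all features. It had 5 members at an unadjusted p under 0.05, against 369 of all 5642 features. DESeq2 gave no adjusted p for rapamycin for any member, as for 4047 of all 5642 features.

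Beside the cytosolic ribosome, the mitochondrial one stood near the middle of the transcriptome. Among cytosolic ribosomal proteins the heat ratio met the 2-fold rule downward in 101 of 137 genes without rapamycin and 48 with it, and upward in 0, with medians of -1.32 and -0.83. All 20 cytosolic ribosome biogenesis genes were lower in both, with medians of -3.57 and -2.99. Among 35 nuclear genes of the respiratory chain and ATP synthase, 17 and 11 were at least 2-fold higher and 0 lower, with medians of 0.95 and 0.70. HAP4, the regulatory subunit of the Hap complex that activates respiratory genes, read 179, 195, 681 and 1439. Genes with near-identical copies are frequent among cytosolic ribosomal proteins, and single values there are uncertain.

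**Figure D5:**
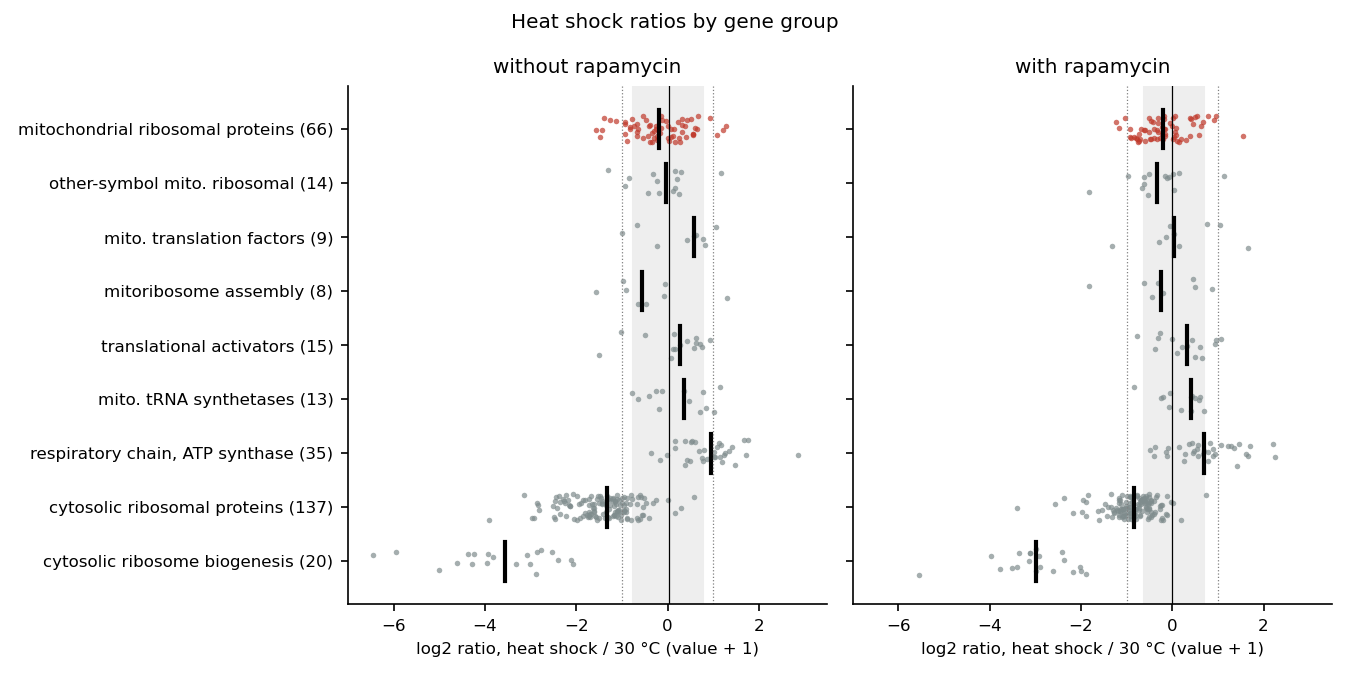
Heat shock ratio, as log2 of value + 1 on the horizontal axis, of each kept gene (points) by gene group, without rapamycin on the left and with it on the right. Black bars are group medians, the grey band runs between the quartiles of all features with a line at their median, dotted lines mark 2-fold, and the mitochondrial ribosomal proteins (red) lie mostly inside the 2-fold lines while cytosolic ribosomal proteins lie to the left and respiratory genes to the right.

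Other parts of the mitochondrial translation apparatus had medians on either side of the members'. The 14 nuclear mitoribosomal genes with other symbols had medians of -0.04 and -0.33. In that list SWS2 (uS13m) was higher in both comparisons, from 38.6 to 88.5 without and from 42.6 to 95.1 with rapamycin (log2 1.18 and 1.14), IMG1 (bL19m) was at least 2-fold lower without (-1.30) and QRI5 (mS38) with rapamycin (-1.83). The medians were 0.58 and 0.05 for 9 translation factors, -0.55 and -0.25 for 8 assembly and rRNA modification genes, 0.28 and 0.32 for 15 translational activators and 0.36 and 0.40 for 13 aminoacyl-tRNA synthetases. TUF1, the elongation factor, read 468, 709, 702 and 734.

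Genes with and without the motif had similar median heat ratios. The 750 other genes with it had median ratios of -0.05 without and 0.01 with rapamycin, and the 4620 without it 0.00 and -0.01. Fewer of the 750 were at least 2-fold higher, 16.4% and 11.9%, against 19.9% and 19.6% of the 4620. At least 2-fold lower were 18.8% and 14.4% of the 750, and 20.1% and 14.8% of the 4620. These differences were not tested. Members with A at the N had medians of -0.18 and -0.22, those with T 0.24 and 0.04 and those with C -0.26 and -0.41. PUF3 itself read 200.2, 178, 183 and 147 in the 4 libraries, a fold of 0.914 in heat without rapamycin (0.711 to 1.17) and 0.827 with it (0.666 to 1.03). The other genes with CCCCT in the promoter had medians of 0.54 and 0.51, and the other genes without it -0.14 and -0.11. The 10 members with CCCCT had medians of -0.18 and -0.49, and the 56 members without it -0.20 and -0.18.

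MRPS12 and RSM19 are tandem neighbours, 229 bases apart, with log2 heat ratios of 0.51 and 0.66 without and -0.32 and 0.78 with rapamycin. Of all members 3, MRP4, MRPL19 and MRPL51, overlap an annotated frame, and 15 members had no annotated gene within 300 bases. MRP8, which has the symbol but not the product, read 182, 194, 823 and 685 and was 4.53-fold higher in heat (3.73 to 5.54), higher than any member.

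Marker genes and HSF1 are given beside these results. Not all of these values moved with temperature, and shares of reads depend on the library total. All 4 MATalpha markers were read, at 67.5 to 3153, and took 0.102% and 0.142% of reads at 30 °C and 0.0409% and 0.0690% in heat, in the order without and with rapamycin. Of the 6 MATa markers, MFA1, MFA2 and AGA2 were at 0 to 4.80 in every library. The MATa genes above the minimum were STE2, STE6 and BAR1, at 0.00397% and 0.00207% of reads at 30 °C and 0.00370% and 0.00723% in heat, for the list as a whole. The 6 meiosis markers took 0.00263% and 0.00152%, then 0.00316% and 0.00555%, with SPO11 and SPO13 under the minimum. In the same order the MATa list held 62, 67, 75 and 163 reads and the meiosis list 41, 49, 64 and 125. Without rapamycin, the counting intervals of each of these lists' shares at 30 °C and in heat overlapped. HSF1 mRNA read 157, 107, 288 and 225, which does not check depletion of the protein. The part of these differences in the members' ratios was not tested.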

How the data were processed

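Per the labels, phenol and chloroform extraction of total RNA was followed by Illumina TruSeq library preparation. The submitters' processing notes name TopHat and HTSeq without versions, and the build sacCer3. No source used here gives the strand handling. The deposited signal values are normalised read counts: in each of the 4 libraries 100% of nonzero values came out as multiples of 1 step (1.43, 0.888, 1.50 and 0.961) within 0.0055, so whole reads were recovered by dividing by it. No source used here says how the authors derived that step.

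Of 7126 features, 6079 matched a RefSeq gene of assembly R64 by systematic name or symbol, and those with a mean of at least 5 were kept. Ratios were taken on log2(value + 1), and 2-fold was the size rule. Intervals are exact 95% conditional binomial intervals of the read ratio without the pseudocount, exact Poisson limits for single values and exact Clopper-Pearson intervals for shares. They cover counting error only, because each group holds 1 library. No molecular identifiers are stated, so copies of the same molecule would be counted as separate reads. The count test used edgeR 4.0.16 (R 4.3.3) with TMM factors, and DESeq2 1.42.0 as an alternative, on the recovered reads with an additive model of heat and rapamycin. Python 3.11.15 with scipy 1.17.1 did the rest, and the code was tested on simulated data. Motif sites were read from the R64 sequence. Cytosolic ribosomal proteins were taken by symbol (RPL, RPS or RPP and a digit) and a ribosomal product, which left out RPP1, a processing factor.

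The members, lists and tests were chosen with earlier results of these data known. Members named are the 6 highest and 6 lowest in each heat comparison, the 3 highest and 3 lowest in each rapamycin comparison and in the difference, and the 5 highest and 5 lowest by level per kilobase, 29 in all, besides those just past a limit or called by a test. Alternatives were 4 other scalings, pseudocounts of 0.25 and 5, no filter, a filter at a mean of 20, other count tests and motif windows of 100 and 400 bases.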

Additional observations from a re-analysis of the deposited data

Results flagged for a closer look

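In 3 members the counting intervals of the same contrast lay on opposite sides of 1 in its 2 arms. The difference itself was not tested, because each arm is 1 library against 1. MRPL39 read 40.5 in heat against 18.6 at 30 °C without rapamycin, and 44.2 against 85.3 with it, a difference of heat ratios of -2.02. MRPS12 read 165 against 116 without and 164 against 205 with rapamycin, a difference of -0.83. Both heated values nearly coincide in each of these genes, and the values at 30 °C differ. MRPL3 went with rapamycin from 172 to 116 at 30 °C and from 63.0 to 99.9 in heat, a difference of the rapamycin ratios of 1.21. Such opposite intervals were found in 3.05% of all features for heat and 6.7% for rapamycin, and in 2 and 1 of the 66 members.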

How the results depend on the processing

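Division by the library total moved the members' medians to -0.64 in heat without rapamycin and 0.58 for rapamycin in heat, and turned the sign of 3 others, to 0.19 in heat with rapamycin, -0.34 for rapamycin at 30 °C and 0.82 for the difference of heat ratios. Members at least 2-fold higher and lower became 0 and 18 in heat without rapamycin, where 12.8% and 30.1% of all features were. In heat with rapamycin they became 6 and 0, against 28.1% and 7.65%. Under rapamycin 2 were higher at 30 °C and 10 in heat, against 2% and 15.4%, and 1 and 0 were lower, against 10.4% and 1.35%. For the difference of heat ratios they became 23 and 1, against 43.9% and 2.32%. With the protein-coding total the medians were -0.52, 0.030, -0.22, 0.43 and 0.54 in the same comparisons (heat without, heat with, rapamycin at 30 °C, rapamycin in heat, the difference), the heat counts 0 and 14 (all features 14.4% and 26.8%), then 4 and 0 (23.7% and 9.73%), the rapamycin counts 2 and 5 higher (2.45% and 10.4%), and those of the difference 14 and 1 (28.1% and 3.19%). With the protein-coding total 1 member was lower under rapamycin at 30 °C and 0 in heat, against 7.49% and 1.61% of all features. The counts of the difference were added to the alternatives after seeing the data. By construction these scalings shift all features, and the members' median less that of all features stayed between -0.22 and -0.21 in both heat comparisons. Why the totals differ from the deposited scale was not tested. A pseudocount of 5 left 1 member higher for rapamycin in heat. DESeq2 called 0 members higher and 0 lower for heat, against 657 and 637 of all 5642 features. For rapamycin it gave no adjusted p for any member, as for 4047 of all features. The cause of these differences from edgeR was not tested. The other 103 medians and counts recomputed under the alternatives stayed within limits: medians within the half-width of the counting interval of the summed reads, counts within a factor of 1.5. The whole motif lay within 100 bases in 60 members and within 400 in 65. No paired analysis was possible because each group holds 1 library, and for the same reason no library could be left out. The depth, 10 to 231 reads per member and library, limits every single-gene ratio.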
